A study of Mus musculus with 10 samples.

Results

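Lipoprotein lipase and the uptake of fatty acids were followed in brown adipose tissue (BAT) through 10 genes, Lpl, Gpihbp1, Angptl4, Lmf1, Vldlr, Cd36, Fabp3, Fabp4, Fabp5 and Slc27a1. These genes were chosen for what their products do, with earlier results of these data known. They are 10 of the 24454 genes in the count files, and all 10 were among the 13568 genes with enough counts to be tested. BAT of 5 control and 5 Stat5Adipoq mice was profiled by RNA-Seq from 1 library for each mouse. The comparison addresses how the loss of the transcription factors STAT5A and STAT5B from adipocytes alters BAT. All mice were males of the C57BL/6N strain, 2 months old and fed ad libitum. Controls carried floxed Stat5 without a Cre transgene according to the methods, although the sample labels call them wild type, and Stat5Adipoq mice lacked Stat5a and Stat5b through Cre driven by the Adipoq promoter. That promoter acts in adipocytes of every fat depot, so the endothelial, immune and stromal cells of the tissue keep Stat5, and white fat of the same animals loses it.

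Lipoprotein lipase hydrolyses the triglycerides of circulating lipoproteins at the wall of capillaries, and the fatty acids it releases enter the cells beneath. The enzyme is folded in the endoplasmic reticulum of adipocytes, carried across the endothelium, held on its inner surface, and switched off by secreted inhibitors. Brown fat takes up large amounts of lipid in this way as fuel for heat production, and fatty acid transporters at the cell surface and binding proteins in the cytosol receive and route what enters.

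Counts on genes ranged from 8488129 to 19514904 per library, and the 10 genes together took 1.35% to 1.95% of them. Values below are CPM, the counts of a gene relative to all counts of its library, scaled by edgeR's TMM method. Stat5a mRNA fell from a mean of 105 to 17.1 CPM and Stat5b mRNA from 83.8 to 21.8 CPM. Ucp1, which defines brown adipocytes, stood at 5402 CPM or more in each library. Control replicate 3 stood apart: its 10 skeletal muscle markers summed to 3839 CPM, against 310 CPM in control replicate 5, 4.75 to 59.8 CPM in the remaining controls and 2.56 to 43.5 CPM in Stat5Adipoq BAT. None of these markers was at 0 in control replicate 3. All 10 had a log2 fold change below 0 and an unadjusted p below 0.05 in edgeR's quasi-likelihood test, without a call. In the same library the liver markers summed to 107 CPM, against 2.01 to 2.87 CPM in the other controls and 1.65 to 7.37 CPM in Stat5Adipoq BAT. Calls that turn on this library are given with and without it.

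Of the 10 genes, Slc27a1 was called lower in Stat5Adipoq BAT at an adjusted p-value threshold of 0.05 (edgeR's quasi-likelihood test, Benjamini-Hochberg adjusted over all genes tested), and none was called higher. Over all genes 2.71% were called, 1.31% lower and 1.4% higher. The median log2 fold change of the 10 genes was -0.10, beside -0.00 over all genes, with 6 below and 4 above 0. At an unadjusted p below 0.05 the same test put 2 genes lower and 1 higher, whereas over all genes it put 8.03% lower and 7.18% higher. The genotypes' libraries did not overlap for 1 of the 10 genes, which was lower, whereas 2.04% of all genes were lower and 2.35% higher without overlap, 4.39% together. Because whole tissue was sequenced, fewer cells of a type and less RNA per cell cannot be told apart in any of these values.

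**Figure D1:**
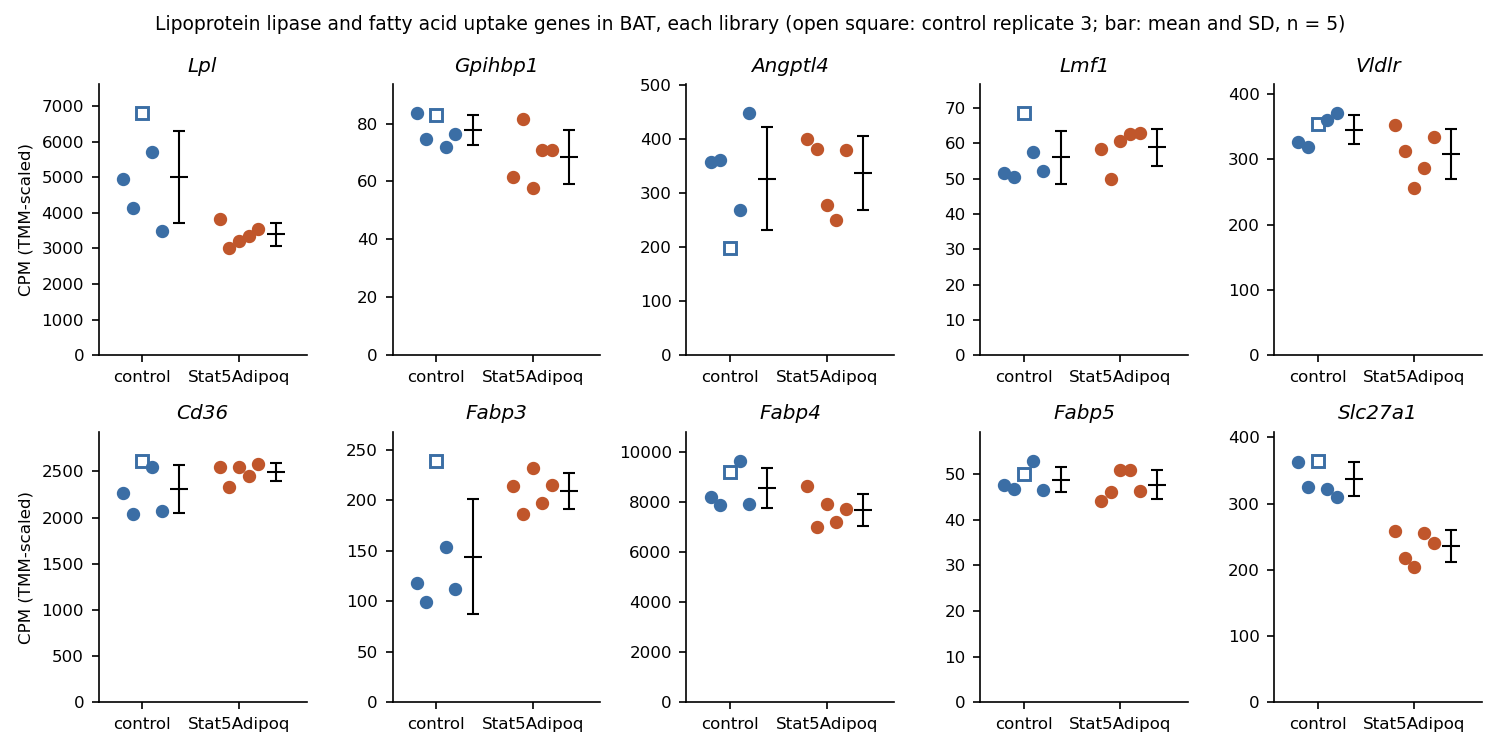
TMM-scaled CPM of each gene (vertical axes, from 0) in each of the 5 control and 5 Stat5Adipoq libraries. Points are libraries, the open square is control replicate 3, and bars give the mean and SD of 5 libraries. Slc27a1 libraries separate by genotype, control Lpl values are widely spread, and the open square lies highest for Lpl, Lmf1, Cd36, Fabp3 and Slc27a1 and lowest for Angptl4.

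Levels differed widely between the genes. Compared per kilobase of mRNA, Fabp4 ranked 2 among all genes tested by the mean of the 2 genotypes. Control BAT held 9554 CPM per kb of Fabp4, then 1218 of Lpl and 679.7 of Cd36, and the ranges of these 3 genes did not overlap. Fabp3 followed with 175, Slc27a1 with 121, Angptl4 with 98.5 and Gpihbp1 with 94.4 CPM per kb, and the ranges of neighbours among these 4 genes overlapped. Fabp5 at 49.4, Vldlr at 43.4 and Lmf1 at 30.1 CPM per kb were lowest, without overlap of their control ranges. In Stat5Adipoq BAT, Lpl at 824 and Cd36 at 734 CPM per kb overlapped, and Slc27a1 at 84.3 CPM per kb came after Angptl4 at 102 CPM per kb in the order, again with overlapping ranges.

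Lpl, on chromosome 8 of GRCm38 from 68880555 to 68906932, encodes the lipase itself. Its control libraries 1 to 5 held 4942, 4142, 6788, 5698 and 3488 CPM, and Stat5Adipoq libraries 1 to 5 held 3834, 2998, 3219, 3356 and 3544 CPM. Controls were the more variable group, with a coefficient of variation of 25.8% against 9.39%. Among the controls, 4 exceeded all Stat5Adipoq libraries and control replicate 5 lay within their range, so the groups overlapped. The log2 fold change was -0.56 (95% confidence limits -0.89 to -0.24), with an adjusted p of 0.074 in edgeR's quasi-likelihood test (unadjusted p = 0.0027). An exact two-sided permutation test gave p = 0.024 unadjusted and 0.12 adjusted over the 10 genes by Benjamini-Hochberg.

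The call for Lpl depended on the test and on single libraries. DESeq2's Wald test put it past the threshold (log2 fold change -0.57, adjusted p = 0.0065), so that it called 2 genes of the set lower and none higher. Of all genes that test called 4.86%, with 2.46% lower and 2.4% higher. Without control replicate 5, edgeR's quasi-likelihood test gave -0.67 with an adjusted p of 0.020, and without control replicate 3 it gave -0.43 with an adjusted p of 0.090. With the muscle markers' level as a covariate the log2 fold change was -0.45 and edgeR's adjusted p was 0.22. The log2 fold change lay between -0.67 and -0.43 and so kept its sign in all 20 alternative fits.

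Lmf1, on chromosome 17 from 25579174 to 25662831, encodes the endoplasmic reticulum factor that lets lipoprotein lipase fold and dimerise. Control BAT held 56.0 ± 7.45 CPM and Stat5Adipoq BAT 58.9 ± 5.30 CPM (SD, n = 5 each), and its 95% confidence limits of -0.13 to 0.27 on the log2 scale spanned 0 (adjusted p = 0.79, edgeR's quasi-likelihood test). Its log2 fold change was 0.07, and 0.15 without control replicate 3, the library with the highest value of 68.4 CPM (adjusted p = 0.37, edgeR's quasi-likelihood test). Gpihbp1, on chromosome 15 from 75596630 to 75598213, encodes the capillary protein that carries the lipase across the endothelium and holds it there. Its control libraries ranged from 71.8 to 83.5 CPM and its Stat5Adipoq libraries from 57.8 to 81.4 CPM. The groups overlapped, with confidence limits of -0.37 to 0.01 (adjusted p = 0.36, edgeR's quasi-likelihood test). Gpihbp1 is made by endothelial cells, and the 10 endothelial markers, among them Pecam1 and Cdh5, summed to 924 to 1142 CPM in control and 977 to 1175 CPM in Stat5Adipoq BAT, with none at 0 in any library. None of them was called by edgeR's quasi-likelihood test, and 2 were higher at an unadjusted p below 0.05, where 7.18% of all genes were.

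Angptl4, on chromosome 17 from 33774900 to 33781575, encodes a secreted inhibitor that inactivates lipoprotein lipase. Controls 1 to 5 held 357, 360.2, 198, 268 and 446 CPM, and Stat5Adipoq libraries 1 to 5 held 399, 381, 277, 249.6 and 379 CPM. Both groups were spread broadly, and control replicate 3 was the lowest library. The log2 fold change was 0.05 with wide confidence limits of -0.38 to 0.48 (adjusted p = 0.95, edgeR's quasi-likelihood test), and it turned to -0.08 without control replicate 3 and to 0.31 with the Ucp1 level as a covariate, a fit added after seeing the data. No direction can be given for this gene.

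Vldlr, on chromosome 19 from 27216480 to 27254231, encodes a receptor that binds triglyceride-rich lipoproteins at the cell surface. Its libraries ranged from 319 to 370.3 CPM in control and from 257 to 352 CPM in Stat5Adipoq BAT. Replicates 2, 3 and 4 of Stat5Adipoq BAT lay below every control library while replicates 1 and 5 lay among them. The log2 fold change was -0.16 (-0.35 to 0.02; adjusted p = 0.39, edgeR's quasi-likelihood test).

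Slc27a1, on chromosome 8 from 71568728 to 71587307, encodes fatty acid transport protein 1, which brings long-chain fatty acids into cells and activates them to acyl-CoA. It was the 1 gene of the set called by edgeR's quasi-likelihood test over all 10 libraries. Control libraries 1 to 5 held 363, 325, 364.5, 322 and 309.5 CPM, and Stat5Adipoq libraries 1 to 5 held 259, 218, 204, 256 and 241 CPM. The lowest control library exceeded the highest Stat5Adipoq library, and the spread within each group was small, at 337 ± 25.2 and 236 ± 24.1 CPM (SD, n = 5 each). The mean fell by 30.0%, a log2 fold change of -0.52 (standard error 0.08; 95% confidence limits -0.69 to -0.35) with an adjusted p of 0.0050 in edgeR's quasi-likelihood test. The exact permutation test gave an unadjusted p of 0.0079, the smallest that 5 libraries against 5 allow. Adjusted over the 10 genes by Benjamini-Hochberg, that permutation p was 0.079.

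The lower Slc27a1 level did not rest on 1 library or setting. All 10 fits with 1 library left out called it, as did the 8 other planned settings and the fit without control replicates 3 and 5 together, which was added after seeing the data. Over all 20 alternatives the log2 fold change lay between -0.55 and -0.45 with an adjusted p of at most 0.019 (edgeR's quasi-likelihood test, DESeq2 or limma-voom). Control replicates 1, 2 and 4, with muscle markers of at most 59.8 CPM, held 322 to 363 CPM of Slc27a1.

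Cd36, on chromosome 5 from 17781690 to 17888959, encodes the scavenger receptor that binds fatty acids at the plasma membrane of adipocytes and of capillary endothelium. Control libraries 1 to 5 held 2272, 2041, 2616, 2546 and 2075 CPM, and Stat5Adipoq libraries 1 to 5 held 2550.2, 2336, 2550.6, 2451 and 2579.8 CPM. Control libraries lay on both sides of the Stat5Adipoq range, which was narrow. The log2 fold change was 0.11 (-0.05 to 0.27; adjusted p = 0.55, edgeR's quasi-likelihood test). A fall as large as that of Slc27a1 lies outside these limits.

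**Figure D2:**
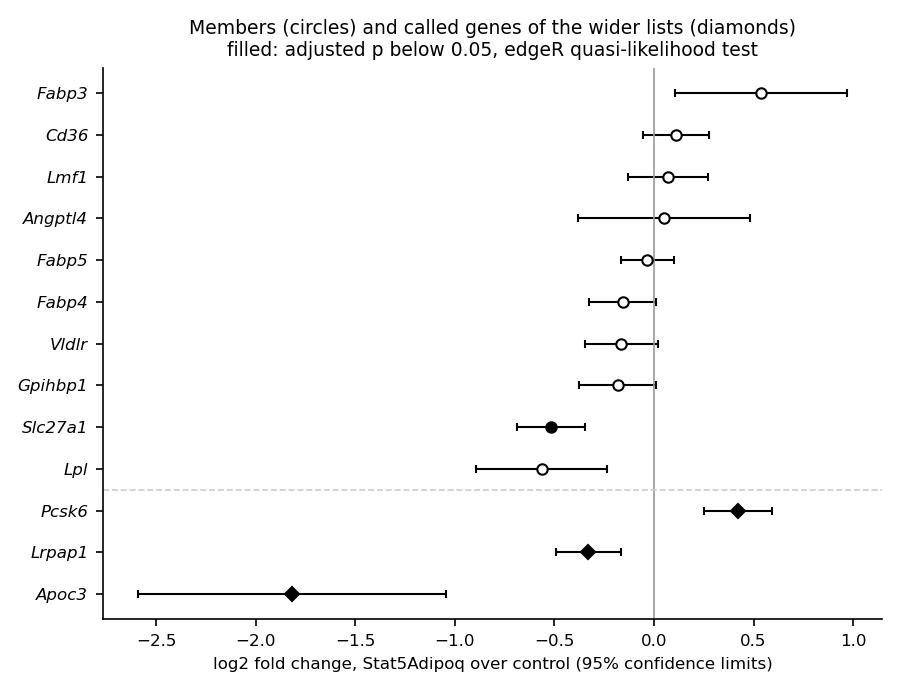
Log2 fold change of Stat5Adipoq over control BAT (horizontal axis) with 95% confidence limits for the 10 genes (circles) and for the 3 called genes of wider lists on the pathway (diamonds). Filled symbols passed the adjusted threshold of 0.05 in edgeR's quasi-likelihood test. Slc27a1 at -0.52 is the filled circle, while Lpl at -0.56 and Fabp3 at 0.54 are as far from 0 with wider limits.

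Fatty acid binding proteins carry fatty acids through the cytosol. Fabp4, on chromosome 3 from 10204342 to 10208616, is the adipocyte form and the most abundant gene of the set. Control BAT held 8560.2 ± 800.5 CPM and Stat5Adipoq BAT 7681 ± 644 CPM of it (SD, n = 5 each), with overlapping libraries and a log2 fold change of -0.16 (-0.33 to 0.01; adjusted p = 0.37, edgeR's quasi-likelihood test). Fabp5, the epidermal form, which lies on the same chromosome from 10012585 to 10016610, varied least in control BAT. Its control libraries ranged from 46.6 to 52.9 CPM and its Stat5Adipoq libraries from 44.2 to 51.0 CPM (log2 fold change -0.03, limits -0.17 to 0.10). Of its 50-base mRNA words, 21.1% also occur in transcripts of 5 other genes, so the division of its counts is uncertain.

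Fabp3, on chromosome 4 from 130308738 to 130315463, encodes the form typical of heart and oxidative muscle that is also made by brown adipocytes. Control libraries 1 to 5 held 118, 99.6, 239, 153 and 112 CPM, and Stat5Adipoq libraries 1 to 5 held 214, 186.5, 232, 198 and 215.5 CPM. Control replicate 3, the library with the muscle RNA, held more Fabp3 than every Stat5Adipoq library, and the remaining controls held less than all of them. Over 10 libraries the log2 fold change was 0.54 (0.10 to 0.97), which did not pass (adjusted p = 0.21 in edgeR's quasi-likelihood test). The exact permutation p was 0.048 unadjusted and 0.16 adjusted over the 10 genes.

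Without control replicate 3 the controls averaged 121 ± 23.1 CPM (SD, n = 4), and Fabp3 was called higher in Stat5Adipoq BAT. The exact permutation p was 0.0079 unadjusted, the smallest possible, and 0.040 adjusted over the 10 genes. Control replicate 3 was the 1 control library not below the Stat5Adipoq range, so this permutation p followed from leaving it out. The log2 fold change without it was 0.79 with an adjusted p of 0.0031 (edgeR's quasi-likelihood test). Leaving out control replicates 3 and 5 together gave 0.75 (adjusted p = 0.012), and the muscle markers' level as a covariate gave 0.79 (adjusted p = 0.057, both by edgeR's quasi-likelihood test). The Ucp1 level as a covariate, added after seeing the data, gave 0.41 (adjusted p = 0.10, same test), the lowest of the 20 alternatives. Control replicate 3 also held the most Ucp1 of the controls, at 13831 CPM. Its ratio of Fabp3 to Ucp1 CPM, 0.0173, lay between the control extremes of 0.0134 and 0.0207. The parts of muscle RNA and of the Ucp1 level in the control value were not tested beyond these fits. Fabp3 also shares 29.2% of its 50-base words with the pseudogene Fabp3-ps1, and 19.6% of its exon bases face a gene on the opposite strand, whose reads cannot be told apart if counting ignored the strand.

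**Figure D3:**
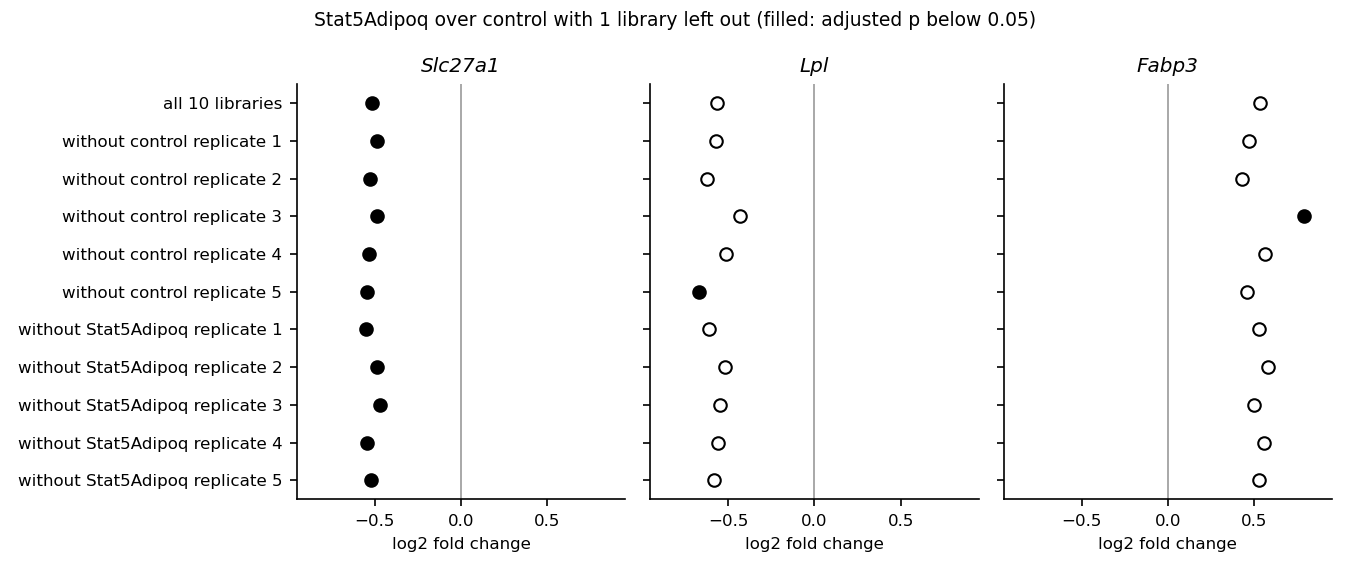
Log2 fold change of Slc27a1, Lpl and Fabp3 (horizontal axes, Stat5Adipoq over control) with all 10 libraries and with each left out in turn. Filled points passed the adjusted threshold of 0.05 in edgeR's quasi-likelihood test. Slc27a1 is filled throughout, Lpl without control replicate 5 (-0.67) and Fabp3 without control replicate 3 (0.79).

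Start regions are shown for Slc27a1, which was called, and for Fabp3, which was called without control replicate 3, because STAT5 binds DNA at the palindrome TTCNNNGAA. RefSeq (GRCm38.p6) windows matched 5 of the 10 genes, Lmf1, Vldlr, Cd36, Fabp3 and Slc27a1, in 8 windows of 250 bases before a start. Lpl, Gpihbp1, Angptl4, Fabp4 and Fabp5 had no entry. The bases just before the annotated gene starts, both on the plus strand and written 5′ to 3′, were as follows for Slc27a1 (chr8:71568621-71568727, 107 bases) and Fabp3 (chr4:130308488-130308737, 250 bases).
Slc27a1: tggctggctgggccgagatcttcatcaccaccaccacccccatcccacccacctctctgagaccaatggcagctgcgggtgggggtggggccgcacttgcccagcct
Fabp3: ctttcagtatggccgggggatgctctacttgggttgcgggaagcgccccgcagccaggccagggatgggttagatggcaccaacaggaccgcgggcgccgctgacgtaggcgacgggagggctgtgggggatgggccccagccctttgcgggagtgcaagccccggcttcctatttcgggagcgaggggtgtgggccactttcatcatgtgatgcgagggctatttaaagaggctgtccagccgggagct
No base is in capitals because neither stretch holds TTCNNNGAA, the nuclear receptor motif AGGTCA, the GC box GGGCGG or the TATA box TATAAA on either strand. None of the 8 windows held TTCNNNGAA, which occurs in 7.02% of the 32851 windows of this length and 5.94% of those of tested genes. AGGTCA, in 14.0% of all windows and 11% of those of tested genes, was in the window of Cd36. GGGCGG, in 32.7% of all windows and 56.2% of those of tested genes, was in windows of Lmf1, Vldlr, Cd36 and Slc27a1. The Slc27a1 windows that are not printed held 1 and 3 matches to it. A missing match says only that these letters are not in this window.

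Genes that act with the set were taken from 6 wider lists of 67 genes, of which 54 were tested. Among these, 2 were called lower and 1 higher, where 1.31% and 1.4% of all genes were. At an unadjusted p below 0.05, edgeR's quasi-likelihood test put 11 lower and 6 higher, where it put 8.03% and 7.18% of all genes. Their median log2 fold change was -0.02, close to that of all genes, and 2 genes were without overlap in each direction, where 2.04% of all genes were lower and 2.35% higher without overlap.

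Regulators of lipoprotein lipase held both a fall and a rise, with 14 of 16 genes tested. Apoc3, an apolipoprotein that inhibits the lipase, held 2.39, 2.54, 5.65, 2.12 and 2.01 CPM in controls 1 to 5 and 0.838, 1.09, 0.462, 1.10 and 0.559 CPM in Stat5Adipoq libraries 1 to 5. It fell without overlap (log2 fold change -1.82, standard error 0.36, adjusted p = 0.019 in edgeR's quasi-likelihood test) at a mean of 21.3 counts per library. Its highest value is in control replicate 3, which also holds the liver markers, and without that library the log2 fold change was -1.46 (adjusted p = 0.011, edgeR's quasi-likelihood test). The call was lost without Stat5Adipoq replicate 3 or 5, with the muscle markers' level as a covariate (adjusted p = 0.058) and with a replicate block (adjusted p = 0.056, both by edgeR's quasi-likelihood test).

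Pcsk6, a proprotein convertase that can cleave lipoprotein lipase, rose from 115 ± 9.12 to 154 ± 15.0 CPM (SD, n = 5 each). Its libraries ranged from 104 to 127 CPM in control and from 130.1 to 167 CPM in Stat5Adipoq BAT, without overlap. The log2 fold change was 0.42 (standard error 0.08, adjusted p = 0.015 in edgeR's quasi-likelihood test), and all 10 fits with 1 library left out called it, while a replicate block did not (adjusted p = 0.052, the same test). Among abundant regulators that did not pass, Apoc1 was 318 and 279 CPM and Apoe 846 and 691 CPM in control and Stat5Adipoq BAT (log2 fold changes -0.19 and -0.29). Apoe was called lower without control replicate 3 (log2 fold change -0.37), which held 648 CPM of it against 829.9 to 997 CPM in the other controls.

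**Figure D4:**
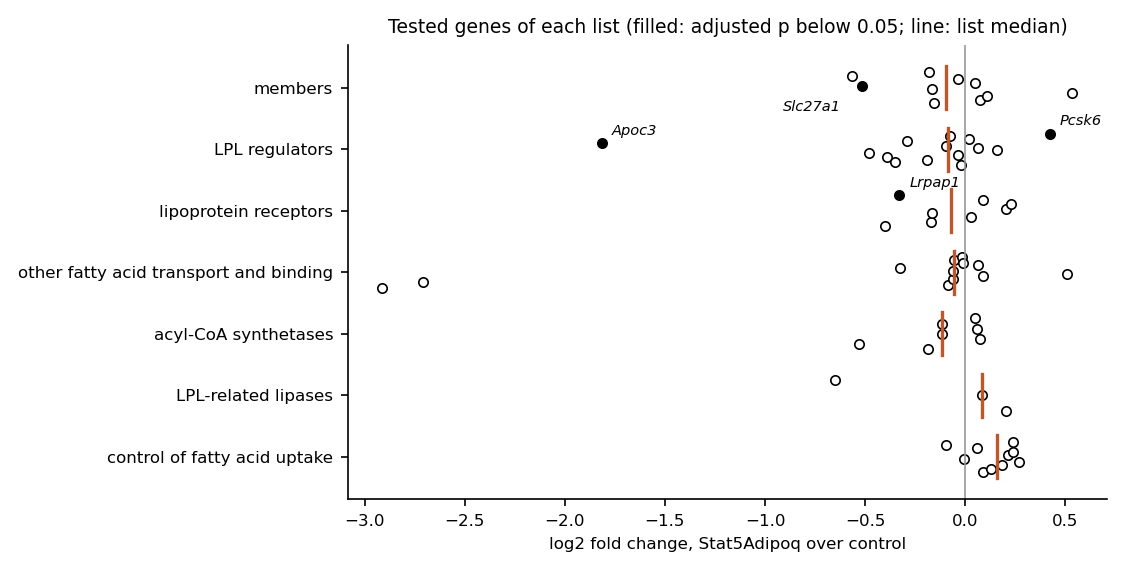
Log2 fold change of Stat5Adipoq over control BAT (horizontal axis) for the tested genes of the set and of the 6 wider lists, 1 point per gene, with the vertical line at the list's median. Filled points passed the adjusted threshold of 0.05 in edgeR's quasi-likelihood test. The 4 filled points are Slc27a1, Apoc3, Pcsk6 and Lrpap1, and most other points lie near 0.

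Among lipoprotein receptors, 8 of 9 genes were tested and 1 was called, where 2.71% of all genes were. Lrpap1, the chaperone that keeps receptors of the LDL receptor family from binding ligands too early, fell from 62.9 ± 5.13 to 50.1 ± 4.21 CPM (SD, n = 5 each; log2 fold change -0.33, adjusted p = 0.038 in edgeR's quasi-likelihood test). The libraries did not overlap, but 3 of the 10 fits with 1 library left out kept the call, namely those without control replicate 3, control replicate 4 or Stat5Adipoq replicate 1. It was also lost with scaling by library size only, with the muscle covariate (adjusted p = 0.078), with a replicate block (adjusted p = 0.11) and without control replicates 3 and 5 together (adjusted p = 0.061, all by edgeR's quasi-likelihood test). Scarb1, the receptor for high-density lipoproteins, was 95.8 and 72.5 CPM (log2 fold change -0.40, adjusted p = 0.10 in edgeR's quasi-likelihood test) and was called without control replicate 3 (-0.50), by DESeq2 and with the muscle covariate (-0.55). Sort1, a sorting receptor, was 414 and 369.7 CPM (log2 fold change -0.16).

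Other fatty acid transport and binding genes held no call among 12 tested of 18 by edgeR's quasi-likelihood test. At an unadjusted p below 0.05 in that test 2 were lower and 1 higher, where 8.03% and 7.18% of all genes were. DESeq2 called 1 of them, where it called 4.86% of all genes. Dbi, the acyl-CoA binding protein, was 1606 and 1595 CPM, and Cav1, the coat protein of caveolae, 851 and 891 CPM. Got2, which has been described at the plasma membrane as a fatty acid binding protein as well as in mitochondria, was 15.9 and 22.6 CPM (log2 fold change 0.51), was called by DESeq2, and shares 32.3% of its 50-base words with Got2-ps1. Acyl-CoA synthetases, which trap fatty acids in the cell as Slc27a1 does, held no call among 7 tested of 8 by edgeR's quasi-likelihood test or DESeq2, with 1 lower at an unadjusted p below 0.05. Acsl1, the most abundant of them, was 3305 and 3052 CPM (log2 fold change -0.11, limits -0.36 to 0.13), and Acsl5 was 1261 and 1329 CPM. Acsl3 was 54.1 and 47.6 CPM (log2 fold change -0.19, unadjusted p = 0.043 and adjusted p = 0.31 in edgeR's quasi-likelihood test). Acsl4 was 40.6 and 37.5 CPM (log2 fold change -0.12).

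Lipases related to Lpl held no call among 3 tested of 6 genes by either test, with Lipg, the endothelial lipase, at 12.8 and 8.23 CPM (log2 fold change -0.65, unadjusted p = 0.018 and adjusted p = 0.21 in edgeR's quasi-likelihood test). All 10 genes in the control of fatty acid uptake were tested. None was called by edgeR's quasi-likelihood test, 8 had a log2 fold change above 0, and 4 were higher at an unadjusted p below 0.05, where 7.18% of all genes were. Pparg and Ppara, nuclear receptors that bind fatty acids and switch on genes of uptake and oxidation, were 309 and 352 CPM and 689 and 830.4 CPM in control and Stat5Adipoq BAT (log2 fold changes 0.19 and 0.27, both with an adjusted p of 0.24). Nrp2, a co-receptor for VEGF ligands, was 198 and 234 CPM (0.24). Nrp1, named after its values were seen, ranged from 377 to 452 CPM in control and from 458 to 501 CPM in Stat5Adipoq BAT without overlap (0.21, adjusted p = 0.098, edgeR's quasi-likelihood test) and was the 1 gene of this list that DESeq2 called.

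Of 4 general adipocyte markers, 1 was called, where 2.71% of all genes were. The same share stands beside the calls of the other marker lists below. Adipoq, whose promoter drives the Cre transgene, was 1033 and 984 CPM, and Plin1 was 1218 and 1209.7 CPM (log2 fold changes -0.07 and -0.01), while Cfd fell from 1386 to 522 CPM. Of 5 white adipocyte markers tested, 1 was called, Retn, which fell from 86.0 to 29.7 CPM, while 4 of the 5 log2 fold changes lay below 0 and that of Lep was 0.62. Of 9 brown adipocyte markers, 1 was called, Cox7a1, which rose by 0.29 on the log2 scale, while 3 log2 fold changes lay below 0, among them Cidea at -0.20 and Dio2 at -1.07. Neither the 8 macrophage nor the 6 fibroblast markers held a call by edgeR's quasi-likelihood test. At an unadjusted p below 0.05, 1 and 0 of them were lower, where 8.03% of all genes were. The part of these cell types in the values of the set was not tested.

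The members' profiles over the 10 libraries were compared by the root mean square difference of standardised log2 CPM. Both genotypes entered together, so a shared difference between genotypes also brings profiles close. The closest pairs were Cd36 and Fabp3 (0.42), Fabp4 and Lpl (0.52) and Lpl and Slc27a1 (0.56), and the farthest was Fabp5 and Angptl4 (1.80). Of 8361 genes with at least 10 CPM, those most like Lpl were Scpep1 (0.21), Ctsl (0.28), Scp2 (0.30), Baz1b (0.32) and Nnmt (0.34), and Scpep1 (0.25) stayed closest over the 9 libraries without control replicate 3. Those most like Slc27a1 were Bmpr1a (0.24), Bhlhb9 (0.28), Thrap3 (0.31), Sidt2 (0.32) and Slc25a5 (0.32), of which Bmpr1a, Slc25a5 and Bhlhb9 remained among the 5 closest without that library. Bhlhb9, Thrap3, Sidt2 and Slc25a5 were themselves called lower (adjusted p of at most 0.031, edgeR's quasi-likelihood test), and Bmpr1a was not (adjusted p = 0.068, same test).

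The spread of Lpl in control BAT was set beside that of Ucp1, the uncoupling protein, after the values had been seen. Ucp1 in controls 1 to 5 was 8245, 7429, 13831, 10111 and 5402 CPM, and in Stat5Adipoq libraries 1 to 5 it was 8234, 7843, 11866, 12498 and 12660.5 CPM. In controls the order of the libraries by Lpl was the same as by Ucp1, whereas in Stat5Adipoq BAT Lpl was highest in replicate 1, which ranked 4 of 5 for Ucp1. The ratio of Lpl to Ucp1 CPM was 0.571 ± 0.0571 (SD, n = 5; 0.491 to 0.646) in control and 0.334 ± 0.0877 (SD, n = 5; 0.269 to 0.466) in Stat5Adipoq BAT, without overlap. The mean ratio to Ucp1 was also lower in Stat5Adipoq BAT for the other genes of the set except Fabp3, with overlapping ranges. Cd36 was among them (0.275 in control and 0.244 in Stat5Adipoq BAT), although its mean CPM was higher in Stat5Adipoq BAT. With the Ucp1 level as a covariate, an alternative added after seeing the data, Lpl had a log2 fold change of -0.66 (adjusted p = 0.0046, edgeR's quasi-likelihood test), in a fit that called 318 genes lower and 332 higher. That fit gives both genotypes the same slope on Ucp1, although the order by Lpl followed Ucp1 in controls only. Ucp1 was chosen after these values were seen, so this p is not independent of them. Ucp1 itself was 9004 ± 3184 and 10620.4 ± 2379 CPM (SD, n = 5 each; log2 fold change 0.24, adjusted p = 0.69).

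**Figure D5:**
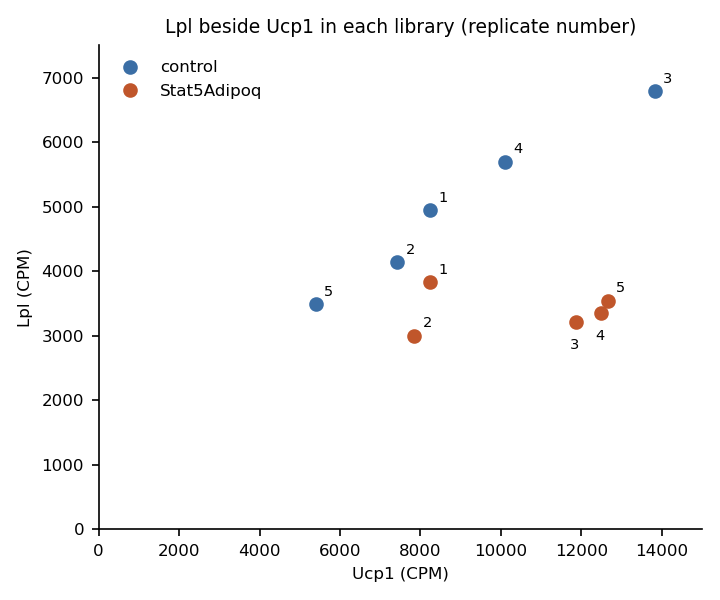
Lpl (vertical axis, CPM) against Ucp1 (horizontal axis, CPM) in each library, numbered by replicate. The 5 control libraries ascend together, from 3488 CPM of Lpl in replicate 5 to 6788 CPM in replicate 3, while Stat5Adipoq libraries stay between 2998 and 3834 CPM of Lpl over the Ucp1 range of 7843 to 12660.5 CPM.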

How the data were processed

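RNA of BAT from 5 control and 5 Stat5Adipoq mice was sequenced as single reads of 50 bases, 1 library for each mouse. Alignment by the authors was to GRCm38 with STAR 2.5.0b and counting over exons with featureCounts 1.5.0-p1, and the deposited counts per gene are raw. Whether the strand was used is not stated. Of the deposited tables of the authors' DESeq2 comparison, 1 was used to pair gene symbols with identifiers, and their fold changes and p-values were not used. Genotype and replicate number come from the sample labels.

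Genes were kept where counts divided by size factors summed to above 45 over the libraries. Genotypes were compared by edgeR 4.0.16 (quasi-likelihood F test, TMM, no covariate) with Benjamini-Hochberg adjustment over 13568 genes and a threshold of 0.05, and single members also by exact two-sided permutation of log2 CPM (prior count 0.5). Standard errors were derived from each fold change and its F statistic. The procedure was tested on simulated counts. At 8488129 to 19514904 counts per library, genes of few counts have wide limits.

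Alternatives were DESeq2 1.42.0, limma-voom (limma 3.58.1), RLE size factors, library size only, 2 other filters, a replicate block, a muscle covariate and each library left out. A Ucp1 covariate and a fit without control replicates 3 and 5 were added after seeing the data. Levels per kilobase use the longest GENCODE M21 transcript matched to RefSeq, and shared words are 50-base words found in other genes' transcripts. Promoter windows are RefSeq's for GRCm38.p6. The genes of the set and the lists were chosen with earlier results of these data known. Named from each list were the called genes, the 2 most abundant per kilobase and the 2 with the largest change among genes of at least 1 CPM, and for Lpl and Slc27a1 the 5 nearest profiles.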

Additional observations from a re-analysis of the deposited data

Results flagged for a closer look

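Of 64 groups of 5 libraries examined, 4 held a library far from the others by Dixon's criterion, and chance alone would flag about 3.2. Apoc3 was highest in control replicate 3, at 5.65 CPM, where the other controls held 2.01 to 2.54 CPM. Lipa, the lysosomal acid lipase, was also highest in control replicate 3, at 299 CPM against 194 to 212 CPM in the other controls. Lrpap1 was lowest in Stat5Adipoq replicate 5, at 42.8 CPM against 50.1 to 52.8 CPM in the other Stat5Adipoq libraries. Stat5a was highest in Stat5Adipoq replicate 1, at 20.7 CPM against 15.8 to 16.6 CPM, which is below every control library. None of the 10 genes of the set was among them.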

How the results depend on the processing

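Of 180 planned values of single genes of the set, 177 stayed on their side of the threshold, 4 of them with a changed sign (Angptl4), and the other 3 newly passed it, namely Lpl by DESeq2 and without control replicate 5, and Fabp3 without control replicate 3. Genes of the set called lower, 1 here, were 2 by DESeq2, and 2 in each of the added fits without control replicates 3 and 5 together and with the Ucp1 covariate, and ranged from 1 to 2 with single libraries left out. Genes of the set called higher, 0 here, ranged from 0 to 1 with single libraries left out and were 1 without control replicates 3 and 5. Lmf1 changed sign with the Ucp1 covariate, without a call.

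Over all genes, 178 lower and 190 higher calls became 334 and 326 by DESeq2, and 318 and 332 with the Ucp1 covariate, and higher calls fell to 108 with the muscle covariate. Leaving out single libraries gave 84 to 222 lower and 96 to 220.0 higher calls. Those that moved both counts by over 1.5 times gave, for lower and higher calls, 106 and 115 without control replicate 1, 101 and 112 without control replicate 2, 111 and 108 without control replicate 4, 89 and 96 without Stat5Adipoq replicate 3, 88 and 101 without Stat5Adipoq replicate 4 and 84 and 104 without Stat5Adipoq replicate 5. Wider-list genes called lower, 2 here, were 1 by library size only and 0 to 4 with single libraries left out (0 without Stat5Adipoq replicates 3 or 5, 4 without control replicate 3, 1 without control replicates 1, 2 or 5 or Stat5Adipoq replicates 2 or 4). Those called higher, 1 here, were 3 by DESeq2, 2 with the Ucp1 covariate and 1 in each fit with a library left out. By exact permutation, 3 single genes of the set had an unadjusted p below 0.05, and 1 to 4 with single libraries left out, 1 without Stat5Adipoq replicate 3 or 4. Leaving out a library also lowers the sample number, and the cause of these changes was not tested.

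Deviations of libraries with the same replicate number correlated at -0.20, 0.22, -0.16, 0.12 and -0.17. These values show no uniform pairing by number, but with 1 pair of libraries per number they cannot exclude it. A replicate block gave 141 lower and 132 higher calls over all genes, kept Slc27a1 as the 1 called gene of the set (log2 fold change -0.52), and left 0 lower and 0 higher wider-list genes, since Apoc3, Lrpap1 and Pcsk6 were then no longer called. Exact sign flips within pairs left 0 genes of the set, since their smallest possible p is 0.0625. Low depth limits genes such as Apoc3, at 21.3 counts per library on average.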

Other observations

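Mfsd2a, a transporter of lysophospholipids, had the largest log2 fold change among the wider-list genes of at least 1 CPM, at -2.71 (adjusted p = 0.26, edgeR's quasi-likelihood test). Controls 1 to 5 held 12.5, 0.726, 30.2, 61.1 and 0.365 CPM, and Stat5Adipoq libraries 1 to 5 held 0.503, 5.19, 0.462, 9.69 and 0.959 CPM. Controls 1, 3 and 4 lay above every Stat5Adipoq library, control 2 lay among them, and control 5 lay below all of them. Controls 2 and 5 also held the least Lpl and the least Ucp1 of the controls. The controls' order by Ucp1 was the same as that by Lpl and the exact reverse of that by Angptl4, and the other 8 genes of the set followed it neither fully nor in reverse. In Stat5Adipoq BAT neither held for Lpl and Angptl4, and the order by Lmf1 was the same as that by Ucp1. These orders were noticed after the values had been seen and were not tested.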
